A study of Mus musculus with 30 samples.

Results

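Fibre type transcription factors were followed across the tissues of mice lacking Mtm1, the X-linked gene for the lipid phosphatase myotubularin. They were Six4, Eya1, Eya4, Sox6, Tbx15, Nfatc1, Mef2c and Prox1, taken as every row of the count table that carries one of these symbols, which gave 8 of the 36103 genes. RNA came from male Mtm1-/y mice and their WT littermates at 5 weeks of age, all on a pure 129Pas background, and the knock-out line is not described as limited to muscle. There were 4 WT and 4 Mtm1-/y libraries of the gastrocnemius and of the heart, 4 and 3 of the diaphragm, and 3 and 4 of the liver, each a separate sample by its label. The gastrocnemius is a largely fast limb muscle, the diaphragm is a mixed respiratory muscle and the heart holds no skeletal fibres, while the liver serves as a tissue without muscle. Nothing in the sources used here says that libraries of different tissues came from the same animals, so the p-values describe the spread between these samples.

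A muscle fibre is slow and oxidative or fast and glycolytic according to the myosin, calcium handling and energy genes it expresses, and a network of transcription factors sets that choice. Homeodomain proteins of the sine oculis family, such as Six4, bind DNA and are activated by the EYA coactivators Eya1 and Eya4, which together drive fast fibre genes. Sox6 represses slow fibre genes within fast fibres, and Tbx15 is a T-box factor enriched in fast glycolytic fibres. On the slow side, calcineurin dephosphorylates Nfatc1 so that it enters the nucleus, Mef2c responds to calcium and activates sarcomere and oxidative genes, and Prox1 is a homeobox factor of slow fibres that also marks hepatocytes, heart muscle and lymphatic endothelium. These roles are background and were not tested here.

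Sox6 had the largest decrease among the 8 genes in Mtm1-/y gastrocnemius, and Eya4 was another of the 4 that were lower there, so their start regions are shown for reference. RefSeq's table for GRCm38.p6 gave promoter windows, from 250 bases before to 50 bases after a transcription start, for 5 of the 8 genes in 15 entries. The Sox6 gene lies on chromosome 7 at 115470872 to 116038796 on the minus strand, and the Eya4 gene on chromosome 10 at 23102963 to 23350786, also on the minus strand. For both genes the outermost start that the table lists lies inside the annotated gene. The windows below are of those starts and of the 2 further Sox6 starts that hold a MEF2 or MEF3 match. Each is written 5′ to 3′ on the gene's strand, and capitals mark letters that match 4 motifs searched on both strands. They include the E-box CANNTG of myogenic factors, the MEF3 element TCAGGTT bound by Six4 and its relatives, and the NFAT element GGAAAA. The last is a loose MEF2 pattern (CTA, any 4 bases, then TAG), which also takes in letters that are not a MEF2 element.
Sox6, outermost listed start, chr7:116038695-116038994, minus strand: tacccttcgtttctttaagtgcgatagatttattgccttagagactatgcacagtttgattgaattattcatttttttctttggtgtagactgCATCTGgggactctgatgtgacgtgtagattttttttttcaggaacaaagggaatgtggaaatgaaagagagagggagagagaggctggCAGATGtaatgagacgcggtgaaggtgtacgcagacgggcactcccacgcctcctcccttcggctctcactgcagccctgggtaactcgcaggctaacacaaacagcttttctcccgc
Sox6, the second start, chr7:116030998-116031297, minus strand: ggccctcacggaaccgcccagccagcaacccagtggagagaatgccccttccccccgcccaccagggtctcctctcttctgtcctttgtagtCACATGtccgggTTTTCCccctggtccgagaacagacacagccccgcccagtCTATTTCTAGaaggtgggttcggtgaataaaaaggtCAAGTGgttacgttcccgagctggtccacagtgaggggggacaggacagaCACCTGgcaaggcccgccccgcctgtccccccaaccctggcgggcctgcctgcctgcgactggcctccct
Sox6, the fifth start, chr7:115824661-115824960, minus strand: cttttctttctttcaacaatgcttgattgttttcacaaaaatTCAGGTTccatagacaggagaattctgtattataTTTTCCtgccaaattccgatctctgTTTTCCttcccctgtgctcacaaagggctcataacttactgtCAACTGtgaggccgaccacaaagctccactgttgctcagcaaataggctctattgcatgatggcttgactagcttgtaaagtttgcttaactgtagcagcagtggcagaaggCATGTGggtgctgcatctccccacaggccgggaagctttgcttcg
Eya4, outermost listed start, chr10:23349894-23350193, minus strand: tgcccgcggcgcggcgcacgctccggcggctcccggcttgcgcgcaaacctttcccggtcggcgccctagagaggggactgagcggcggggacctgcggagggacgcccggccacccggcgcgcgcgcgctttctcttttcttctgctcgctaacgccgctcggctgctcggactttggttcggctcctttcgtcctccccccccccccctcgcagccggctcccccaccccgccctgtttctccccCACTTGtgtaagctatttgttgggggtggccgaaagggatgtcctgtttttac
Of 6 Sox6 windows, the second held 1 match to the loose MEF2 pattern, with TTTC in its middle, beginning 106 bases before its start. The fifth held 1 MEF3 match, beginning 208 bases before its start, and the other Sox6 windows held neither motif. Among all 32851 listed windows, 3.69% held the loose MEF2 letters, 4.07% the MEF3 letters, 23.4% the NFAT letters and 72.3% the E-box letters. Elsewhere among the members, a MEF3 match stood in 1 of 2 Six4 windows and in 1 of 3 Mef2c windows. A match is a run of letters and not a bound site. No entry was used for Eya1, Tbx15 or Nfatc1.

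Sequencing depth ran from 24873817 to 44289343 counted reads per library. Mtm1 itself was lower in Mtm1-/y than in WT in each of the 4 tissues without overlap, by log2 fold changes between -2.59 in the heart and -1.60 in the liver, although the liver value had an edgeR adjusted p of 0.365 and passed with DESeq2 (1.34e-06). Nkx2-5, a defining gene of heart muscle, was at 8.86 to 18.7 CPM in the heart libraries and at 0 in every gastrocnemius and diaphragm library. Diaphragm libraries differed in hepatocyte RNA. A set of 12 hepatocyte markers summed to 27774 to 55079 CPM (reads scaled to a common library size, here by the library total) in WT 1, WT 2, WT 4 and Mtm1-/y 2, and to 529, 1004 and 3809.85 CPM in WT 3, Mtm1-/y 4 and Mtm1-/y 1. Replicates also varied more in this muscle, with an edgeR biological coefficient of variation of 0.394 beside 0.171 for the gastrocnemius. In the heart, the atrial gene Myl7 was at 883.5, 44.9, 691.5 and 5363 CPM of the library total in WT. It was at 4.77, 1268, 1.27 and 9.25 CPM in Mtm1-/y, where libraries 1, 3 and 4 lay below every WT library. Myl7 was singled out after its values were seen. Levels below are CPM scaled by TMM over all 30 libraries unless another unit is given. In bulk tissue, fewer cells of a type and less RNA per cell cannot be told apart.

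**Figure D1:**
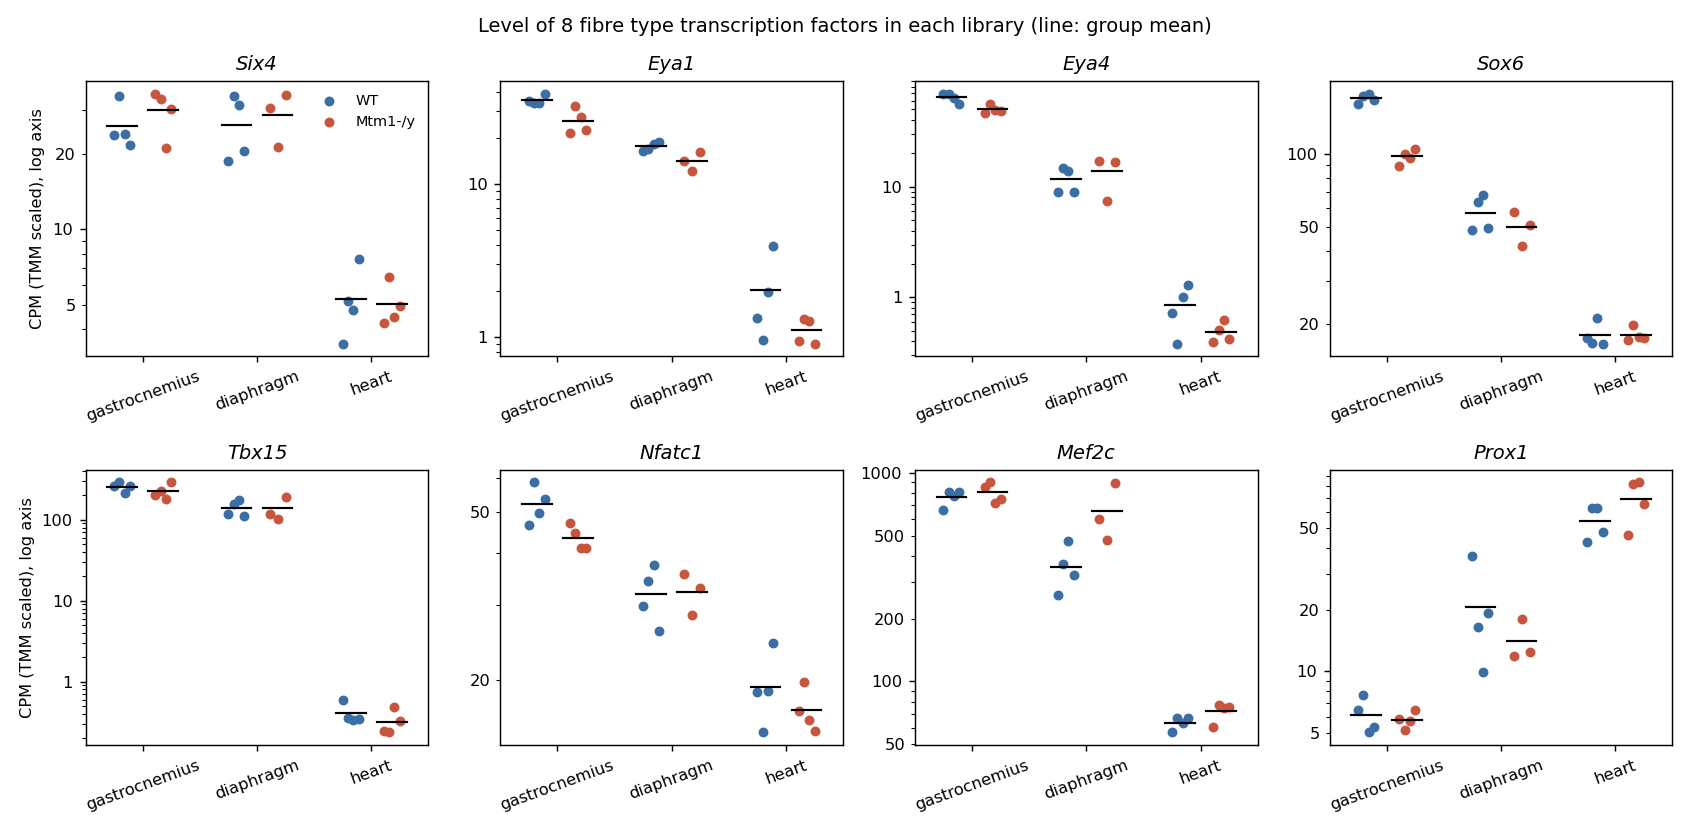
Level of each of the 8 genes, in TMM-scaled CPM on a log axis, in every WT (blue) and Mtm1-/y (red) library of the gastrocnemius, diaphragm and heart, with black lines at the group means. Sox6 falls from 159.7 to 177 CPM in WT gastrocnemius to 89.5 to 105 CPM in Mtm1-/y, and Tbx15 lies under 1 CPM in every heart library.

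The first comparison asked how the 8 factors were distributed over WT striated tissues. In one fit of the 12 WT libraries, 6 of the 8 were higher in the gastrocnemius than in the diaphragm, Prox1 was lower and Six4 was not called. Against the heart, 7 were higher in both muscles and Prox1 was lower. The shares of all 16650 genes called were 25% higher and 29.7% lower for the gastrocnemius against the diaphragm, 33.9% higher and 30.3% lower for the heart against the gastrocnemius, and 22.5% higher and 28.7% lower for the heart against the diaphragm. The median log2 difference over the 8 genes was 0.96 for gastrocnemius against diaphragm, beside -0.05 over all genes, and -3.44 for heart against gastrocnemius, beside 0.08 over all genes. Scaling by library totals, added after seeing the data, turned the calls over all genes from 4166 higher and 4950 lower to 1516 and 10177 for gastrocnemius against diaphragm, and from 5648 and 5047 to 10150 and 2457 for heart against gastrocnemius, where the medians of all genes became -0.56 and 0.67. On that scale all 8 genes were still called for the heart against either muscle, and between the muscles Eya1 (0.51, adjusted p = 0.168) and Nfatc1 (0.22, adjusted p = 0.219) were no longer called.

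Among the factors of the fast programme, Eya4 had the steepest gradient between muscles. Its levels were 69.6, 68.5, 64.0 and 56.0 CPM in the 4 WT gastrocnemius libraries and 8.88, 14.9, 13.9 and 8.89 CPM in the 4 WT diaphragm libraries. The muscles did not overlap, and the log2 difference was 2.49 (SE 0.26, edgeR adjusted p = 2.14e-05). In WT heart it stood between 0.380 and 1.28 CPM, on 14 to 48 reads per library. Eya1, the other coactivator, was at 34.5, 33.9, 33.8 and 38.9 CPM in WT gastrocnemius, at 16.4, 16.9, 18.1 and 18.8 CPM in WT diaphragm and at 1.32, 0.950, 1.98 and 3.91 CPM in WT heart. The 3 tissues did not overlap for Eya1, and the muscles differed by 1.03 on the log2 scale (SE 0.30, adjusted p = 0.012). Their DNA-binding partner Six4 did not share this gradient. It had 23.8, 34.0, 24.1 and 21.8 CPM in WT gastrocnemius and 18.7, 34.3, 31.4 and 20.5 CPM in WT diaphragm, with ranges that overlapped and a log2 difference of 0.01 (95% interval -0.53 to 0.55, adjusted p = 0.981). In WT heart Six4 was at 3.50 to 7.62 CPM, below both muscles in every library.

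Sox6, the repressor of slow genes, was at 159.7, 173, 177 and 167 CPM in WT gastrocnemius and at 48.7, 63.7, 67.8 and 49.7 CPM in WT diaphragm. Its log2 difference between these muscles was 1.58 (SE 0.12, adjusted p = 2.12e-06). WT heart held 16.7 to 21.3 CPM, near the 16.6 to 26.8 CPM of WT liver, and those ranges overlapped. Tbx15 showed the widest span of the 8 genes. It was at 257, 290.3, 215 and 261 CPM in WT gastrocnemius, at 119, 155, 176 and 113 CPM in WT diaphragm and at 0.334 to 0.599 CPM in WT heart, where it rested on 12 to 19 reads per library. The log2 difference was -9.33 for heart against gastrocnemius (SE 0.24, adjusted p = 9.67e-11), -8.44 for heart against diaphragm (SE 0.24, adjusted p = 2.64e-10) and 0.89 for gastrocnemius against diaphragm (SE 0.16, adjusted p = 0.000664).

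The slow factors did not share a single pattern. Nfatc1 was the most evenly spread of the 8 genes, with WT means of 52.1 ± 5.26 CPM (SD, n = 4) in gastrocnemius, 31.9 ± 4.97 (n = 4) in diaphragm, 19.2 ± 3.90 (n = 4) in heart and 13.1 ± 0.936 (n = 3) in liver. Mef2c was at 663, 805, 776 and 807 CPM in WT gastrocnemius, at 259, 363, 471 and 325 CPM in WT diaphragm and at 57.0 to 67.0 CPM in WT heart. Its log2 difference was 1.13 between the muscles (SE 0.15, adjusted p = 9.47e-05). Mef2c, named above with the slow programme, was thus higher in the faster muscle, and so was Nfatc1, whose difference of 0.73 (SE 0.15, adjusted p = 0.0013) was lost on library totals. Prox1 ran the other way, at 6.46, 7.63, 5.02 and 5.35 CPM in WT gastrocnemius and 36.6, 16.4, 9.96 and 19.3 CPM in WT diaphragm, which differed by -1.74 (SE 0.34, adjusted p = 0.00104). It reached 42.8 to 62.9 CPM in WT heart and 89.5 to 151 CPM in WT liver.

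Prox1 in the diaphragm needs its hepatocyte values beside it. Across the 7 diaphragm libraries, its level per library total was 42.9, 17.8 and 23.2 CPM in WT 1, WT 2 and WT 4 and 20.2 CPM in Mtm1-/y 2, the 4 libraries with much hepatocyte RNA, against 11.2, 15.0 and 15.1 CPM in WT 3, Mtm1-/y 1 and Mtm1-/y 4. If Prox1 accompanied hepatocyte markers in the ratio of WT liver, those markers alone would bring 25.3, 15.9, 19.4 and 31.4 CPM to the first 4 libraries and 0.302, 2.17 and 0.573 CPM to the other 3. In Mtm1-/y 2 the computed amount was 155% of the measured Prox1 level, so the ratio of WT liver did not hold in that library and these amounts are rough. With WT 3 as the only WT diaphragm library, a comparison chosen after seeing the data, the gastrocnemius difference shrank to -0.66 (SE 0.26, adjusted p = 0.0932), while the heart remained above the diaphragm by 2.45 (SE 0.30, adjusted p = 0.000298). The same restriction left Eya4, Sox6 and Mef2c called between the muscles and lost Eya1 (log2 difference 1.01, adjusted p = 0.183), Tbx15 (0.59, adjusted p = 0.0637) and Nfatc1 (0.53, adjusted p = 0.125). A single library then stood for the WT diaphragm and was assumed to vary like the other groups. For the other 7 genes, the amount computed in that way was at most 12.8% of the level in any diaphragm library. That highest share was for Sox6 in Mtm1-/y 2, where the ratio did not hold for Prox1. The amount counts only reads that hepatocytes would add, not the smaller share of reads left to other cells. Lymphatic endothelium markers also differed between the muscles. Of 10, 0 were higher and 8 lower in WT gastrocnemius. They summed to 47.3 to 60.6 CPM there and to 117 to 206 CPM in WT diaphragm. Per library total, WT 3 had the highest such sum of the 7 diaphragm libraries, at 232 CPM. The part of lymphatic cells in the Prox1 level was not tested.

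**Figure D2:**
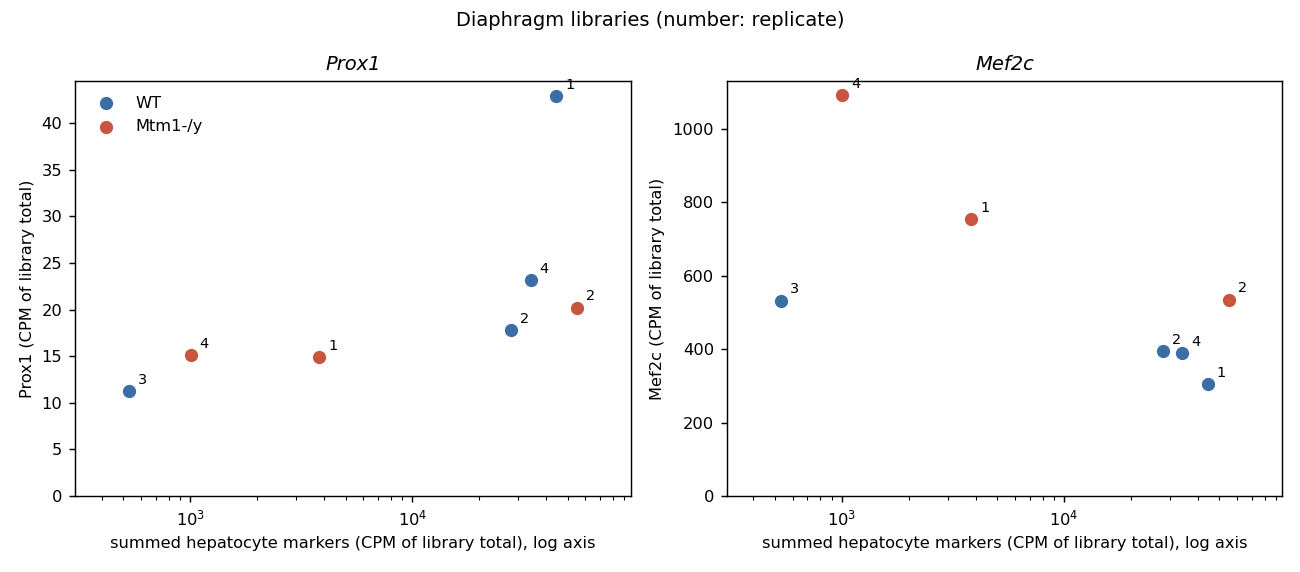
Prox1 (left) and Mef2c (right) in each diaphragm library, in CPM of the library total, against the summed hepatocyte markers on a log axis, with WT in blue, Mtm1-/y in red and replicate numbers beside the points. Prox1 runs from 11.2 CPM in WT 3 to 42.9 CPM in WT 1, and Mef2c is highest in Mtm1-/y 4 and Mtm1-/y 1, which have few hepatocyte reads.

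Compared per length, in TPM (reads per base of the exon union, scaled to a common sum), Tbx15 and Mef2c were the most abundant of the 8 genes in WT gastrocnemius at means of 151 and 107 TPM. Sox6 followed at 25.3, Nfatc1 at 15.4, Eya4 at 15.3, Eya1 at 10.0, Six4 at 5.29 and Prox1 at 1.62 TPM. With the longest transcript as the length, Mef2c stood at 219 TPM and Tbx15 at 129.5 TPM, so the order of the top pair rests on which length is used. Eya4 at 22.1 TPM then also came before Nfatc1 at 19.6 TPM. In WT heart the order was led by Prox1 at 21.2 TPM, followed by Mef2c at 13.4, Nfatc1 at 8.60 and Sox6 at 4.03 TPM. With the longest transcript as the length, Mef2c led there at 27.6 TPM and Prox1 followed at 18.5 TPM.

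**Figure D3:**
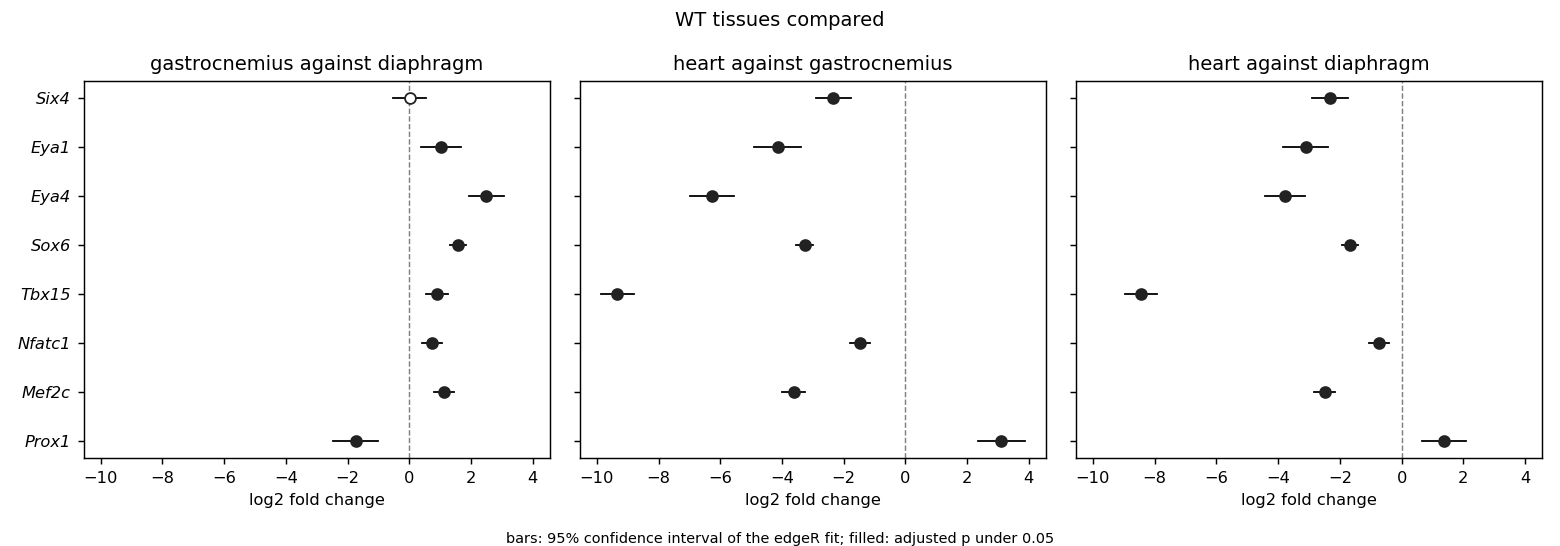
Log2 fold changes of the 8 genes between WT tissues, with 95% confidence intervals of the edgeR fit, filled where the adjusted p was under 0.05. Tbx15 has the largest difference of the 8 between heart and either muscle, and Prox1 alone among them lies to the right in the heart panels.

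The second comparison asked what the loss of Mtm1 did to these factors in each tissue. In the gastrocnemius, 4 of the 8 genes were lower in Mtm1-/y (Sox6, Eya1, Eya4 and Nfatc1) and 0 were higher by edgeR, and DESeq2 called the same 4. Of all 15456 genes tested there, 14.1% were called higher and 14.9% lower, and DESeq2 called 25.9% of the genes it tested in either direction. The groups of 4 libraries did not overlap for 2 of the 8 genes, while they did not overlap for 30.6% of all genes. The median log2 fold change over the 8 genes was -0.22, beside 0.02 over all genes.

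Sox6 was at 159.7, 173, 177 and 167 CPM in WT and at 89.5, 99.6, 96.6 and 105 CPM in Mtm1-/y gastrocnemius. Every Mtm1-/y library lay below every WT library, with a gap wider than the spread within either group. The log2 fold change was -0.78 (SE 0.07, adjusted p = 0.000117), and between -0.81 and -0.74 when any 1 library was left out. An antisense gene, Sox6os, overlaps Sox6 with 481 reads against 57539 over all libraries, and whether the counting used strand is not given in the sources used here.

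Eya1 fell as well, from 34.5, 33.9, 33.8 and 38.9 CPM in WT to 21.4, 32.0, 27.1 and 22.6 CPM in Mtm1-/y. The groups did not overlap, although Mtm1-/y 2 came close to the lowest WT library, and the change was -0.44 on the log2 scale (SE 0.12, adjusted p = 0.0222). This call was lost without WT 4 (adjusted p = 0.0607), Mtm1-/y 1 (0.0547) or Mtm1-/y 4 (0.0538). Eya4 went from 69.6, 68.5, 64.0 and 56.0 CPM to 46.8, 56.3, 49.0 and 48.2 CPM, which was -0.35 on the log2 scale (SE 0.09, adjusted p = 0.0158). Its groups overlapped through Mtm1-/y 2 and WT 4. The call was kept without any 1 library, with the adjusted p reaching 0.0486. Six4, the partner of both coactivators, was at 34.9, 33.3, 21.2 and 30.2 CPM in Mtm1-/y and overlapped with WT (log2 fold change 0.22, 95% interval -0.17 to 0.61, adjusted p = 0.374).

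Nfatc1 was at 46.6, 58.8, 49.7 and 53.5 CPM in WT and at 47.1, 44.5, 41.1 and 41.0 CPM in Mtm1-/y. The groups overlapped through WT 1 and Mtm1-/y 1, and the change of -0.25 on the log2 scale (SE 0.08, adjusted p = 0.0474) was called in 2 of the 8 fits that left out 1 library, being lost without WT 2, 3 or 4 or Mtm1-/y 2, 3 or 4, with adjusted p-values up to 0.117. It missed the threshold with DESeq2 size factors (0.0554), without a filter on low counts (0.0765) and with limma voom weights (0.0625). Tbx15 (log2 fold change -0.18, adjusted p = 0.378), Mef2c (0.09, adjusted p = 0.519) and Prox1 (-0.07, adjusted p = 0.769) were not called. Their 95% intervals were -0.51 to 0.14, -0.13 to 0.30 and -0.40 to 0.27.

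The calls on these genes depended on how the libraries were scaled. A list of 22 fast fibre genes took 23.7 to 26.1% of the counts in WT gastrocnemius and 17.8 to 20.7% in Mtm1-/y. Scaling by library totals raised the median log2 fold change of all genes by 0.34 and turned the calls over all genes from 2173 higher and 2306 lower into 7647 higher and 647 lower. On that scale Sox6 was still lower (log2 fold change -0.44, adjusted p = 0.000835). Eya1 (-0.10, adjusted p = 0.506) and Eya4 (-0.02, adjusted p = 0.873) were no longer called, Nfatc1 changed sign (0.09, adjusted p = 0.313), and Six4 (0.56, adjusted p = 0.0177) and Mef2c (0.43, adjusted p = 0.00231) were called higher. Sox6 is therefore the member whose decrease held on both scales, while the decreases of Eya1, Eya4 and Nfatc1 are decreases relative to the median gene.

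**Figure D4:**
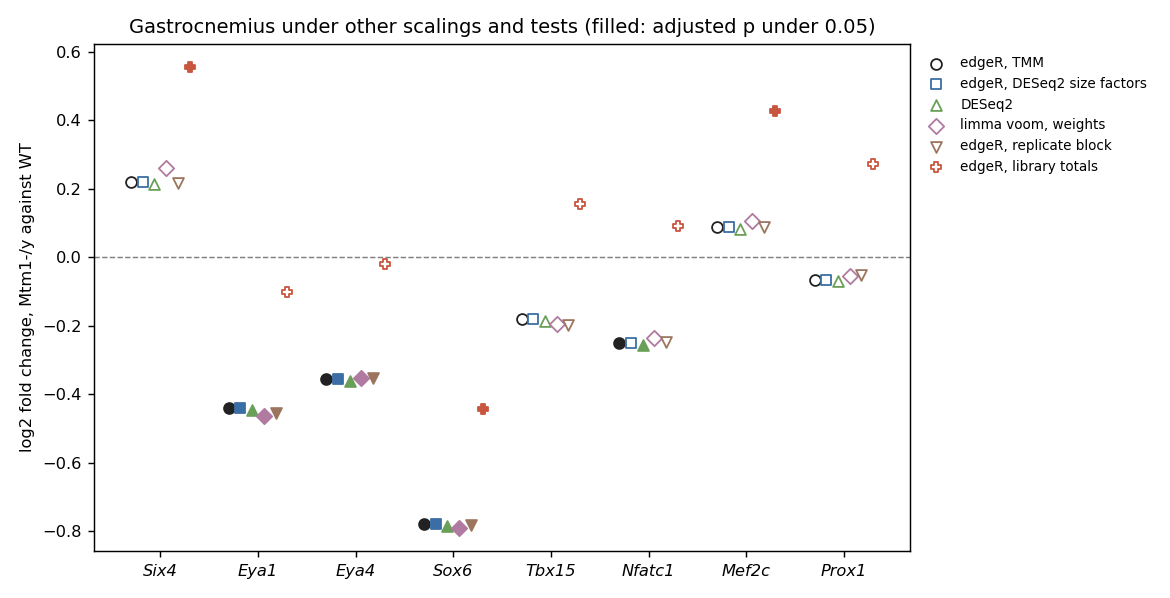
Log2 fold change of each of the 8 genes in Mtm1-/y against WT gastrocnemius under 6 combinations of scaling and test, filled where the adjusted p was under 0.05. The first 5 combinations lie close together for every gene, and scaling by library totals moves all 8 upward, leaving Sox6 lower at -0.44.

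Other genes of the same pathways were taken from lists chosen with earlier results of these data known. Means below are given with the SD over the 4 libraries of each genotype. Of 10 partners tested from the sine oculis, EYA, DACH and TEAD families, 3 rose and 1 fell, with a median log2 fold change of 0.05. Six2 fell from 25.8 ± 7.65 to 10.3 ± 1.69 CPM (-1.30 on the log2 scale, adjusted p = 0.00184), while the TEA-domain factor Tead4 rose from 9.22 ± 1.84 to 20.4 ± 9.13 CPM (1.15, adjusted p = 0.0171) with overlapping groups. Six5 rose by 0.44 (adjusted p = 0.0394). Both Six2 and Tead4 kept their direction and their call on library totals, at -0.95 and 1.49.

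The calcineurin and NFAT list, which also holds other NFAT genes and calcineurin inhibitors, had 1 member higher and 5 lower of 15 tested, with a median of 0.06. The catalytic subunit gene Ppp3cb went from 427 ± 29.8 to 263 ± 14.5 CPM (-0.69, adjusted p = 0.000289), and the regulatory subunit gene Ppp3r1 fell by 0.57 on the log2 scale (adjusted p = 0.00254). Myoz1, which tethers calcineurin to the Z-disc of fast fibres, fell by 0.75 (adjusted p = 0.000925). On library totals these 3 remained lower, at -0.35, -0.23 and -0.41, but the list then had 9 higher and 3 lower. Among 7 genes of the MEF2 family and the class IIa histone deacetylases that restrain it, 1 passed the test. Hdac4 rose from 39.5 ± 4.96 to 58.9 ± 11.2 CPM (0.59, adjusted p = 0.00965).

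Of 20 other fibre type regulators, 2 rose and 4 fell, with a median of -0.19. Myog, the myogenin gene of differentiating and denervated muscle, rose from 20.8 ± 5.45 to 74.9 ± 38.3 CPM (1.85, adjusted p = 0.00381). Maf, a large MAF factor of the fast 2B programme, stood at 209 to 352 CPM in WT and fell to between 135 and 189 CPM in Mtm1-/y (-0.75, adjusted p = 0.00652). Ppargc1a, the coactivator of the oxidative programme, fell from 35.9 ± 2.55 to 23.5 ± 4.24 CPM (-0.60, adjusted p = 0.00643), a call lost on library totals (-0.27, adjusted p = 0.0917).

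The output genes of the 2 programmes moved unequally. Of 22 fast fibre genes, 20 fell and 2 rose, with a median log2 fold change of -0.74 that was -0.40 on library totals, where 18 fell and 2 rose. Actn3, the fast fibre alpha-actinin, fell from 11638 ± 1293 to 6104 ± 552 CPM (-0.92, adjusted p = 0.00043), and Ampd1 and Pgam2, enzymes of fast fibre energy supply, fell by 0.82 and 0.74. The 2 that rose were Myh1 and Myh2, the 2X and 2A myosins, which were chosen for naming after their values were seen (1.08 and 0.93, adjusted p = 0.00129 and 0.00345). Of 16 slow fibre genes, 4 rose and 1 fell, with a median of 0.03. The largest rise on that list was of Sln, a calcium pump inhibitor, from 13.8 ± 6.24 to 293 ± 146 CPM (4.42, adjusted p = 0.00032), followed by Csrp3 (2.39, adjusted p = 0.00112) and Fhl1 (1.28, adjusted p = 0.00098). The developmental myosins Myh3 (3.81, adjusted p = 0.000584) and Myh8 (1.05, adjusted p = 0.000244) both rose. On library totals, the 1 slow fibre gene called lower was Myl3 (-0.73, edgeR adjusted p = 0.0429). The slow myosin gene Myh7 (-0.24) and the troponin genes Tnnc1 (-0.17), Tnni1 (0.19) and Tnnt1 (0.62) were not called there. These slow fibre genes were named after their values were seen. On library totals, calls higher and lower became 5 and 1 for the partners of Six4, 4 and 0 for the MEF2 and deacetylase list, 5 and 2 for the other regulators, whose median turned to 0.15, and 5 and 1 for the slow fibre genes, whose median was 0.35.

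Markers of other cells moved with genotype in the gastrocnemius. All 10 macrophage markers were tested and 9 were higher, summing to 42.4 to 74.2 CPM for WT and to 105 to 129 CPM for Mtm1-/y, and 7 of 10 fibroblast markers were higher, with overlapping sums of 2437 to 5161 CPM in WT and 3208 to 6640.4 in Mtm1-/y. Of 10 blood endothelium markers 4 were lower, with sums of 561 to 699 CPM in WT and 409.8 to 516 CPM in Mtm1-/y, and of 10 skeletal muscle markers 9 were lower, with sums of 201215 to 241437 and 128225 to 138462 CPM. Of 10 adipocyte markers 7 were higher, with sums of 259 to 413 CPM in WT and 401 to 599.8 for Mtm1-/y. Of 9 satellite cell markers tested 2 were lower, with overlapping sums of 129 to 136 CPM for WT and 122 to 146 for Mtm1-/y, and of 9 lymphatic endothelium markers 1 rose and 1 fell, with overlapping sums of 47.3 to 60.6 and 46.0 to 61.7 CPM. Of 4 cardiomyocyte markers tested 2 were higher and 1, Actc1, was lower. The whole cardiomyocyte list summed to 6811 to 7784 CPM in WT and to 633 to 2486 CPM in Mtm1-/y. Of 2 B and T cell markers tested 1, Ighm, was lower. That list summed to 60.4 to 84.2 CPM in WT and to 6.19 to 9.98 CPM in Mtm1-/y. Of 11 hepatocyte markers 2 were lower, and of 10 nerve and Schwann cell markers 0 were called. On library totals, 2 of the blood endothelium markers were called higher and 0 lower. The part of these cells in the values of the 8 factors was not tested.

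In the diaphragm, 0 of the 8 genes passed the edgeR test and 0 passed with DESeq2, where edgeR called 0.0119% of 16796 genes and DESeq2 called 2.38%. At an unadjusted p under 0.05 there were 2 of the 8, Mef2c and Eya1, beside 1806 of all 16796 genes. The groups did not overlap for these 2 genes, beside 9.94% of all genes. The median log2 fold change was 0.02, beside -0.01 over all genes.

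Mef2c was at 259, 363, 471 and 325 CPM in WT diaphragm and at 601, 475 and 898 CPM in Mtm1-/y. All Mtm1-/y libraries lay above all WT libraries, but WT 3 and Mtm1-/y 2 were close together, and the log2 fold change of 0.91 (SE 0.28, 95% interval 0.25 to 1.58) had an adjusted p of 0.336 with edgeR and 0.0505 with DESeq2. Leaving out 1 library at a time gave 0.63 to 1.11. Between WT 3 and Mtm1-/y 1 and 4, the libraries with few hepatocyte reads, the value was 0.67 (adjusted p = 0.661). Summed fibroblast markers were also higher in every Mtm1-/y diaphragm library, at 3877 to 7440.2 CPM beside 1891 to 3763 CPM for WT, while summed skeletal muscle markers overlapped at 47130 to 59406 and 42923 to 66893 CPM, and their part in the Mef2c level was not tested. Eya1 was at 16.4, 16.9, 18.1 and 18.8 CPM in WT and at 14.0, 12.1 and 16.2 CPM in Mtm1-/y, without overlap, a change of -0.30 (SE 0.12, adjusted p = 0.452).

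The other 6 factors overlapped between genotypes in the diaphragm. Sox6 was at 48.7, 63.7, 67.8 and 49.7 CPM in WT and at 57.6, 41.8 and 51.0 CPM in Mtm1-/y, a change of -0.18 (95% interval -0.57 to 0.22, adjusted p = 0.799). Eya4 was at 17.0, 7.49 and 16.9 CPM in Mtm1-/y against 8.88 to 14.9 CPM in WT (0.26, 95% interval -0.52 to 1.04). Prox1 was at 11.9, 17.9 and 12.4 CPM in Mtm1-/y, and its log2 fold change of -0.52 (95% interval -1.53 to 0.49, adjusted p = 0.752) became 0.29 (adjusted p = 0.731) among the 3 libraries with few hepatocyte reads. Tbx15 (-0.01), Nfatc1 (0.04) and Six4 (0.15) had intervals of -0.62 to 0.61, -0.30 to 0.39 and -0.47 to 0.77. Of 90 genes on the 7 pathway lists, edgeR called 0 in the diaphragm, and 9 had an unadjusted p under 0.05, beside 1806 of all 16796 genes. DESeq2 called 6 of the 90, which were Rcan1, Dach2, Myog, Csrp3, Myh3 and Myh8. Rcan1, a calcineurin inhibitor that calcineurin signalling itself induces, differed by 1.81 on the log2 scale (SE 0.41, adjusted p = 0.279 with edgeR and 0.0013 with DESeq2), and Myog by 2.34 (SE 0.40, adjusted p = 0.264). These 6 were named after their values were seen.

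In the heart, 0 of the 8 genes passed with either tool, where edgeR called 0.00656% of 15238 genes and DESeq2 0.461%, and none was under an unadjusted p of 0.05. The groups overlapped for all 8 genes, while they did not for 4.17% of all genes. Sox6 was at 17.6, 16.8, 21.3 and 16.7 CPM in WT and at 17.3, 19.9, 17.8 and 17.5 CPM in Mtm1-/y, with a 95% interval of the log2 fold change of -0.22 to 0.22 (adjusted p = 0.992). Prox1 was at 42.8, 62.9, 62.9 and 47.8 CPM in WT and at 46.1, 82.1, 83.8 and 65.8 CPM in Mtm1-/y (0.35, SE 0.20, adjusted p = 0.553). Mef2c averaged 63.4 ± 4.69 and 71.9 ± 7.55 CPM (SD, n = 4 each, 0.17, adjusted p = 0.549). Of 78 genes on the pathway lists, edgeR and DESeq2 called 0 in the heart. An unadjusted p under 0.05 was found for 7 of them, beside 1353 of all 15238 genes. Markers of other cells also differed there. Of 10 white adipocyte markers, 0 were called by edgeR and 7 were lower with DESeq2, with a median log2 fold change of -2.40 and 7 not overlapping, although their summed level overlapped at 532 to 673 CPM for WT and 506 to 589 for Mtm1-/y. Of 12 hepatocyte markers, 0 were called by edgeR and 2 were higher with DESeq2, with a median of 2.20 and overlapping sums of 8.28 to 99.0 and 53.1 to 144 CPM. Their part in the values of the 8 genes was not tested.

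Eya1 and Eya4 had the lowest fold changes of the 8 in the heart, at -0.89 (SE 0.42, adjusted p = 0.546) and -0.82 (SE 0.37, adjusted p = 0.546), on few reads. Eya1 was at 1.32, 0.950, 1.98 and 3.91 CPM in WT, on 35 to 146 reads, and at 0.947, 1.31, 1.28 and 0.903 CPM in Mtm1-/y. The highest library was WT 4, which also held the most of the atrial genes Myl7 and Nppa, at 5363 and 20620 CPM of the library total. Leaving out 1 library at a time moved the Eya1 value from -1.13 to -0.36. Eya4 was at 0.725, 0.380, 1.00 and 1.28 CPM in WT and between 0.397 and 0.622 CPM in Mtm1-/y, with its highest level in WT 4 too. Six4 and Nfatc1 were highest in that library as well, at 7.62 and 24.4 CPM. The part of atrial tissue in these values, and in the other heart differences between genotypes, was not tested.

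**Figure D5:**
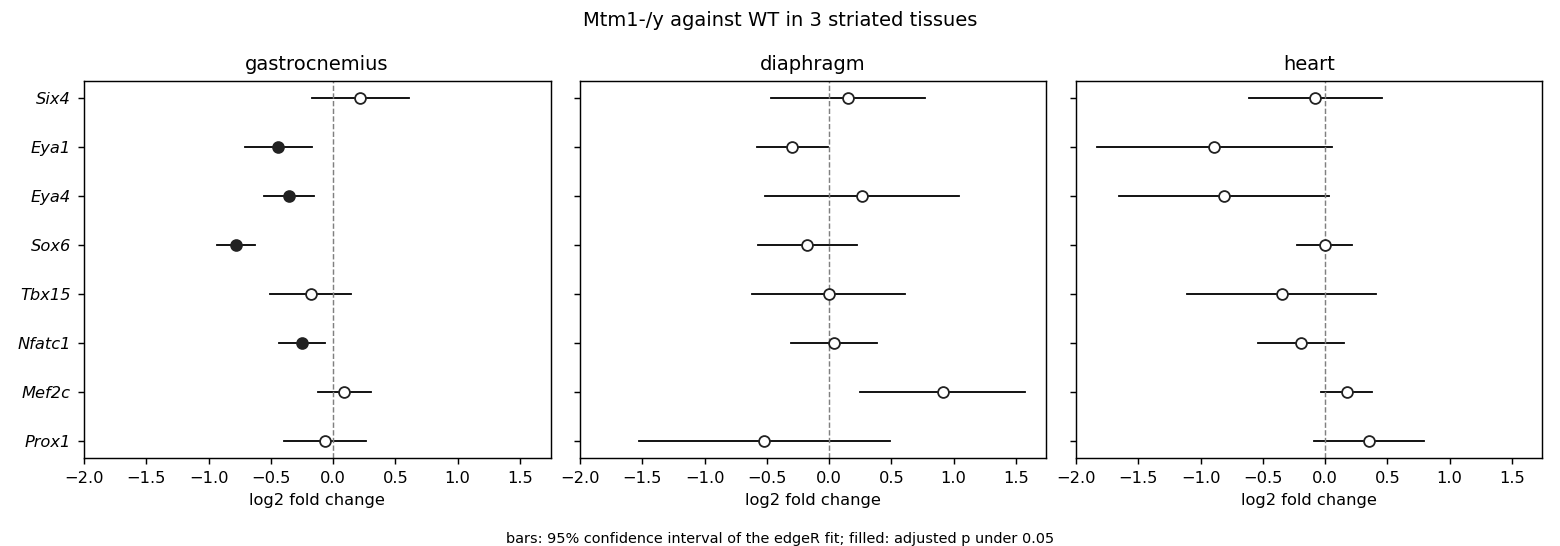
Log2 fold changes of the 8 genes in Mtm1-/y against WT in gastrocnemius, diaphragm and heart, with 95% confidence intervals of the edgeR fit, filled where the adjusted p was under 0.05. The 4 filled points, Eya1, Eya4, Sox6 and Nfatc1, are all in the gastrocnemius, and the diaphragm intervals are wider.

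In the liver, 4 of the 8 genes (Sox6, Nfatc1, Mef2c and Prox1) had enough reads to be tested and 0 were called by edgeR, by DESeq2 or at an unadjusted p under 0.05. Of 14305 genes, edgeR called 0%, with 606 at an unadjusted p under 0.05, and DESeq2 called 5 higher and 20 lower. Prox1 was at 151, 89.5 and 107 CPM in WT and at 115, 142, 48.0 and 120.4 CPM in Mtm1-/y, a change of -0.13 (95% interval -0.91 to 0.65). Eya1 had 0 reads in all 7 liver libraries.

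The last comparison asked whether the effect of genotype differed between tissues, which separate calls do not show. For Sox6, the log2 fold change was -0.78 in the gastrocnemius and -0.0027 in the heart. The effect in the heart minus that in the gastrocnemius was 0.79 (SE 0.12, adjusted p = 0.000548 with edgeR and 1.49e-10 with DESeq2). Thus 1 of the 8 genes was called, beside 19.8% of all 16627 genes. On library totals this difference was 0.39 (adjusted p = 0.0144), while the calls over all genes went from 1652 higher and 1645 lower to 405 and 6577. Between gastrocnemius and diaphragm, 0 of the 8 were called by edgeR, beside 0.28% of 17509 genes, 29 higher and 20 lower, which became 259 and 14 on library totals. At an unadjusted p under 0.05 there were 2 of the 8, Sox6 and Mef2c, beside 2249 of all 17509 genes. The Sox6 difference there was -0.59 (SE 0.17, adjusted p = 0.188), past the threshold with DESeq2 (adjusted p = 0.0384). The Mef2c difference was -0.81 (SE 0.29, adjusted p = 0.279), between 0.09 in the gastrocnemius and 0.91 in the diaphragm.

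Between heart and diaphragm, 0 of the 8 effects differed by the test, beside 0.00573% of 17466 genes, and 0 with DESeq2. At an unadjusted p under 0.05 there was 1, Mef2c (-0.72, SE 0.28, adjusted p = 0.398), beside 1852 of all 17466 genes. The 95% interval for Eya1 was -0.53 to 0.26 for gastrocnemius minus diaphragm and a wider -1.34 to 0.46 for heart minus gastrocnemius. For gastrocnemius minus diaphragm, Prox1 had a wider interval than Eya1, -0.50 to 1.43. The diaphragm differences use the same gastrocnemius and heart libraries as the values above.

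The genes most like each factor across the 23 striated libraries were found by Pearson's r of log2 CPM over 14034 genes, as a description. Tbx15 lay closest to Tnnc2 (r = 0.998) and Ryr1 (r = 0.997), the fast troponin C and the skeletal calcium release channel. Eya1 and Eya4 had the same nearest genes, Synm (r = 0.989 and 0.994), which encodes the intermediate filament protein synemin, and Kctd15 (r = 0.988 and 0.992). Six4 came closest to Tmem38b (r = 0.982) and Tpm2 (r = 0.976), Mef2c to Tceal5 (r = 0.992) and Amotl1 (r = 0.992), and Nfatc1 to Smtnl2 (r = 0.981) and Pbxip1 (r = 0.980). For Sox6 these were Srpr (r = 0.992) and Ccdc43 (r = 0.991), and for Prox1, which runs opposite in level, Rtn4rl1 (r = 0.974) was among them. The libraries share tissue, and these values carry no test.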

How the data were processed

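PolyA RNA of 30 libraries was sequenced after stranded library preparation. Per the labels, the authors used bcl2fastq 2.17.1.14, cutadapt 1.10, STAR 2.5.3a and HTSeq 0.6.1p1 on mm10, and deposited 1 table of raw read counts per gene for all libraries. Genes were filtered with filterByExpr (minimum count 10), scaled by TMM and tested with the edgeR 4.0.16 quasi-likelihood test in R 4.3.3, within each tissue for genotype, over 2 tissues for the difference of genotype effects and over 12 WT libraries for tissues. Adjusted p-values are Benjamini-Hochberg values over all genes tested, with a threshold of 0.05. DESeq2 1.42.0 and limma 3.58.1 were alternatives. TPM was computed from GENCODE gene lengths. The procedure was tested on data simulated with a single fixed spread between replicates, smaller than that of the diaphragm libraries. That test therefore does not cover how well changes in the diaphragm could be detected. The members and gene lists were chosen with earlier results of these data known. Genes named beside the members were up to 3 per pathway list with the smallest p among those called in the gastrocnemius, and the 2 most like each member, of which some results are not reported here. The depth of each library, and the number of libraries, limit the precision.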

Additional observations from a re-analysis of the deposited data

Results flagged for a closer look

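In WT gastrocnemius, Eya1 stood at 38.9 CPM in replicate 4, apart from the other 3 libraries at 33.8 to 34.5 CPM, with a gap of 0.853 of the whole range (Dixon's ratio, above its critical value). In WT heart, Tbx15 stood at 0.599 CPM in replicate 1, apart from the others at 0.334 to 0.353 CPM, with a gap of 0.93 of the range, on 12 to 19 reads per library. Of 43 groups of 4 libraries examined in this way, chance would set apart about 1 in 20. The effect of genotype on Sox6, heart minus gastrocnemius, was 0.79 log2 units by the edgeR test of the difference itself (adjusted p = 0.000548). It reflects a decrease in the gastrocnemius that was not seen in the heart. Every Mtm1-/y gastrocnemius library lay below every WT library, and the groups overlapped in the heart.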

How the results depend on the processing

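Leaving out 1 library at a time gave 2 to 4 of the 8 genes called in the gastrocnemius, 1 to 2 for heart minus gastrocnemius (Eya4 joined without WT heart 2, at -0.70, adjusted p = 0.0478), and the full counts elsewhere. A further requirement of an absolute log2 fold change over 1 left 0 in the gastrocnemius. DESeq2 called 1, Sox6, for gastrocnemius minus diaphragm. With the diaphragm libraries of low hepatocyte level alone, 3 genes were called between WT gastrocnemius and WT diaphragm. On library totals the Nfatc1 value in the gastrocnemius was 0.0896, with the other sign. With the replicate number as a block, 3 genes were called in the gastrocnemius, where Nfatc1 was lost (adjusted p = 0.0778), and no other count of members changed. The labels do not tie the numbers to animals, and in none of the 7 pairs of groups checked did every same-numbered pair of libraries deviate together with a correlation over 0.1. Between genotypes these correlations ran from -0.038 to 0.104 in the gastrocnemius and from -0.638 to 0.461 in the diaphragm. Between WT tissues they ran from 0.018 to 0.288 for heart with diaphragm and from 0.027 to 0.174 for heart with gastrocnemius, with 3 of 4 libraries closest to their own number in each, so a shared source there cannot be told from the data. Over all genes, edgeR and DESeq2 called 0 and 314 higher and 2 and 124 lower in the diaphragm, 0 and 19 higher and 1 and 67 lower in the heart, 29 and 157 higher and 20 and 218 lower for gastrocnemius minus diaphragm, and 1 and 42 higher and 0 and 179 lower for heart minus diaphragm. Apart from refits without 1 library, 532 of the recomputed values stayed on their side of the threshold, 16 lost the call, 3 gained it and 1, Nfatc1 above, turned its sign. Those 532 include uncalled values of the other sign, and 18 uncalled results changed sign under at least 1 setting. The causes of these changes were not tested. Tbx15 and Eya4 in the heart rest on few reads, so small differences there were not detectable at this depth.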
